A study of Macaca mulatta with 30 samples.

Results

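A set of 9 genes of the elastic fibre and of the alveolar myofibroblast were followed in fetal rhesus lung after antenatal corticosteroids: ELN, LOX, LOXL1, FBN1, FBLN5, MFAP5, TNC, PDGFRA and ACTA2. They were taken by gene symbol from the lung count table, which held 30246 Ensembl identifiers, 15769 of them with a symbol. Of the 9 genes, 7 had a row and all 7 passed the read minimum, among 17644 genes tested. ELN and LOX were not matched to an identifier of the lung table and were not analysed here in lung.

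RNA came from whole lung of 15 wild type fetuses with 3 animals in each of 5 groups. The lung labels give gestational day 124 to 130, whereas hippocampus labels of same-numbered animals give days 131 to 136, so the age is uncertain from the labels. In the paper the mean gestational age was above 130 days in every group. Control mothers received saline. The clinical drug, Celestone (a mixture of betamethasone phosphate and betamethasone acetate), was given as an intramuscular dose of 0.25 mg/kg, and lung was taken after 4 h or 5 days. Beta-Ac, betamethasone acetate alone, was given at 0.125 mg/kg, and lung was taken after 6 h or 5 days. The early time points of the drugs therefore differ in dose and in hours as well as in compound. Animal numbers began with 15 in all 3 clinical drug animals at 4 h and in saline replicates 1 and 2, and with 16 or 17 in the other animals. What this prefix stands for is not given, and it cannot be told apart from treatment where the 4 h group is set against another treated group. In the libraries between 14.1 and 45 M reads were counted on genes, and replicate 1 at 4 h after the clinical drug was the deepest.

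Elastic fibres give the lung its recoil. A core of elastin (ELN) is deposited on a scaffold of fibrillin microfibrils (FBN1 with microfibril-associated proteins such as MFAP5), fibulin-5 (FBLN5) brings the monomers to the scaffold, and lysyl oxidases (LOX, LOXL1) cross-link them. In the developing lung the alveolar myofibroblast, a cell that carries the PDGF receptor alpha (PDGFRA) and contracts through smooth muscle actin (ACTA2), lays elastin at the tips of the rising septa. Tenascin-C (TNC) is an extracellular matrix protein found at sites of branching and septation. Whole lung RNA holds many cell types, so fewer cells of a type and less RNA per cell cannot be told apart. ACTA2 is also made by airway and vascular smooth muscle, whose 6 listed markers were all present, with a summed level from 728 to 1100 CPM (TMM-normalized reads per 1 M reads) over the 15 animals.

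None of the 7 genes was called in any of 8 comparisons between groups. Calls required a 1.5-fold change or more together with p under 0.05 and Storey q under 0.1 by edgeR's quasi-likelihood test. The genes nearest to a call were LOXL1, whose mean was lower at 4 h after the clinical drug, and FBN1, whose mean was higher there. FBLN5 and PDGFRA stayed inside a 1.5-fold interval in all 8 comparisons, while TNC and MFAP5 varied too much between animals for such a bound. Over all genes, 7.4% were called for the clinical drug at 4 h against saline (3.46% higher and 3.94% lower). For Beta-Ac at 6 h against saline the share was 0.442% (0.368% higher and 0.0737% lower). With saline as reference, the 5-day share was 0% (clinical drug) and 0.00567% (Beta-Ac). Between drugs 6.74% were called at the early time points (2.62% higher and 4.11% lower with the clinical drug) and 0% at 5 days. Between times 10.4% were called for the clinical drug (4.47% higher and 5.92% lower at 4 h) and 0.261% for Beta-Ac. At each of these shares fewer than 1 of 7 genes would be called, so a count of 0 carries little information. Some genes below had all animals of a group above or below all animals of another. The share of all genes with such a separation was not computed, so it is given as a description only.

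**Figure D1:**
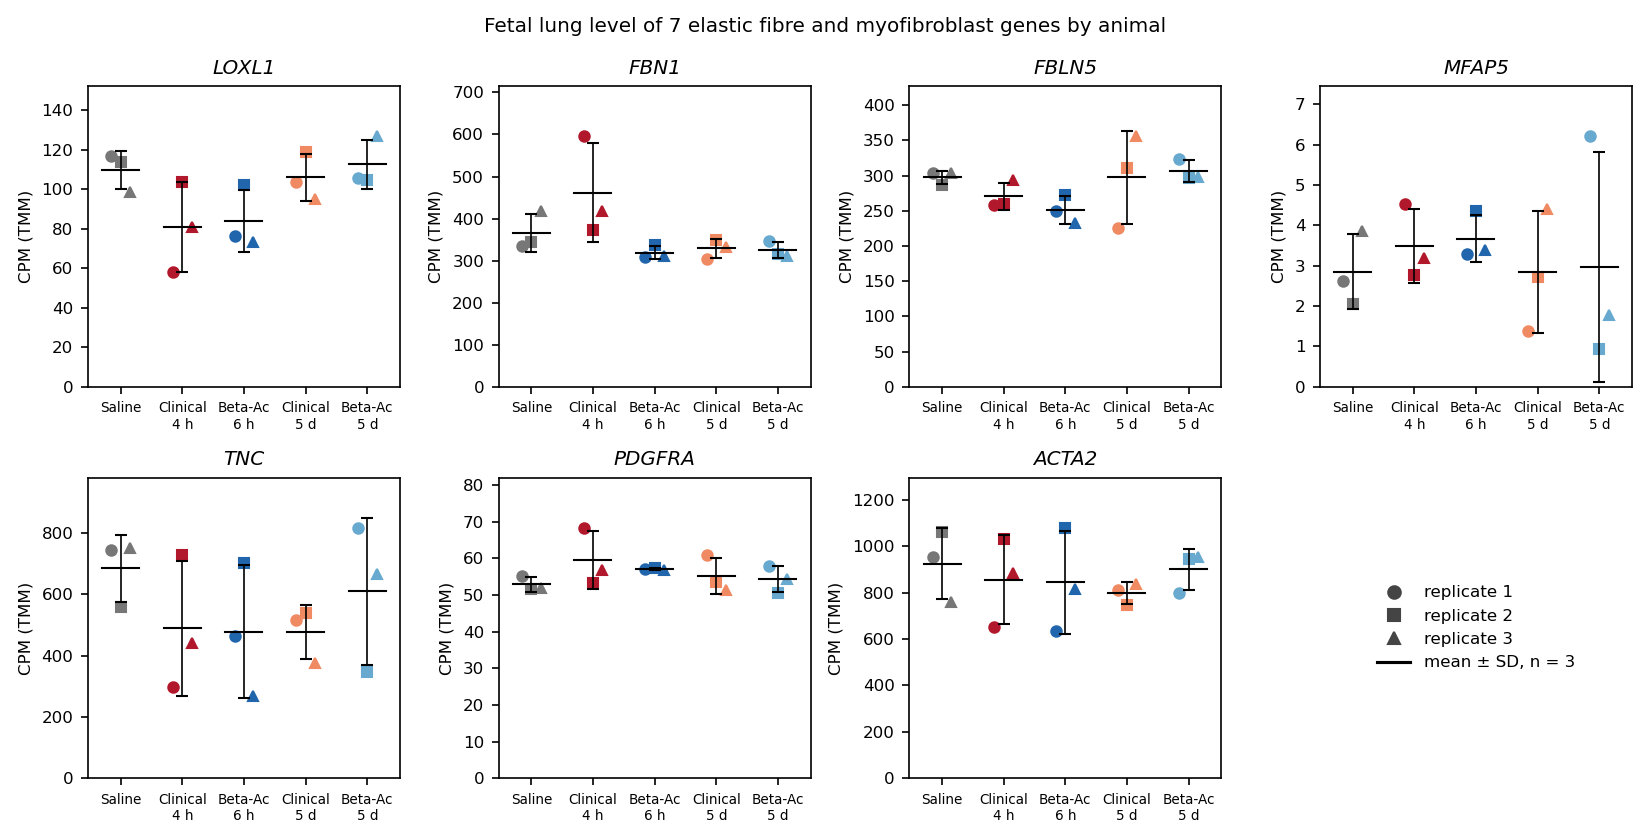
Level of each of the 7 genes in lung (y axis, TMM-normalized reads per 1 M reads, CPM, from 0) by group (x axis), with 1 symbol per animal and the mean ± SD of 3 animals. LOXL1 was lowest in replicate 1 at 4 h after the clinical drug (58.2 CPM), where FBN1 was highest (596 CPM), and PDGFRA lay between 50.7 and 68.4 CPM in all animals.

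LOXL1 (ENSMMUG00000003638) encodes lysyl oxidase-like 1, which cross-links tropoelastin at the fibulin-5 scaffold. In saline lungs it was at 117, 114 and 98.8 CPM. At 4 h after the clinical drug it was at 58.2, 104 and 80.9 CPM, and at 6 h after Beta-Ac at 76.5, 102 and 73.4 CPM. In each early group 2 animals were below every saline animal and replicate 2 was within the saline range. At 5 days LOXL1 was at 104, 119 and 95.4 CPM after the clinical drug and at 106, 105 and 127 CPM after Beta-Ac, which overlapped saline. Ordered by mean, the groups ran from Beta-Ac at 5 days (113 ± 12.4 CPM, SD, n = 3) through saline (110 ± 9.8), the clinical drug at 5 days (106 ± 11.8) and Beta-Ac at 6 h (84 ± 15.7) to the clinical drug at 4 h (80.9 ± 22.7). Neighbours in this order overlapped in every case.

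Against saline the log2 fold change of LOXL1 was -0.45 at 4 h after the clinical drug (SE 0.18, 95% interval -0.83 to -0.06, q = 0.131 by edgeR's quasi-likelihood test). At 6 h after Beta-Ac it was -0.39 (interval -0.78 to 0, q = 0.331). Neither passed the q threshold, and both comparisons share the saline animals. The early groups differed from each other by -0.06 (interval -0.45 to 0.33). Against its own 5-day group the clinical drug at 4 h gave -0.40 (q = 0.128) and Beta-Ac at 6 h gave -0.43 (q = 0.504). For Beta-Ac all 3 animals at 6 h were below all 3 at 5 days. The 5-day differences from saline were -0.05 (clinical drug) and 0.04 (Beta-Ac), with both intervals inside 1.5-fold.

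FBN1 (ENSMMUG00000004239) encodes fibrillin-1, the backbone of the microfibril. Saline lungs held 335, 344 and 418 CPM. At 4 h after the clinical drug the animals held 596, 372 and 417 CPM, while at 6 h after Beta-Ac they held 308, 337 and 312 CPM. At 5 days FBN1 was at 305, 350 and 332 CPM after the clinical drug and at 346, 316 and 311 CPM after Beta-Ac. All 3 animals at 4 h after the clinical drug were above all animals of the other treated groups, but 2 of them were within the saline range. By mean the order was the clinical drug at 4 h (462 ± 119 CPM), saline (366 ± 45.8), the clinical drug at 5 days (329 ± 22.6), Beta-Ac at 5 days (325 ± 19.1) and Beta-Ac at 6 h (319 ± 15.6), and neighbours overlapped throughout.

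The log2 fold change of FBN1 against saline was 0.34 at 4 h after the clinical drug (SE 0.15, interval 0.02 to 0.65, q = 0.154 by edgeR's quasi-likelihood test) and -0.20 at 6 h after Beta-Ac (q = 0.473). Set directly against Beta-Ac at 6 h, the clinical drug at 4 h was higher by 0.53 (SE 0.15, interval 0.22 to 0.85, q = 0.0357), a fold of 1.45. Against the clinical drug at 5 days it was higher by 0.49 (interval 0.17 to 0.80, q = 0.0331), a fold of 1.4. Both passed the q threshold and fell short of 1.5-fold, so without a fold-change threshold FBN1 was called in these comparisons, where 13.5% and 18.7% of all genes were. In a fit of only the 2 early groups the q of the first rose to 0.159, and in a fit of only the 2 clinical drug groups the q of the second was 0.0898. At 5 days FBN1 differed from saline by -0.15 after the clinical drug and -0.17 after Beta-Ac, and between the drugs by 0.02 (interval -0.29 to 0.33).

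Both patterns turned on replicates 1 and 2 at 4 h after the clinical drug. Replicate 1 held the lowest LOXL1 and the highest FBN1 of all 15 libraries. Without it, LOXL1 against saline came to -0.27 (q = 0.28) and FBN1 to 0.09 (q = 0.488), and FBN1 against Beta-Ac at 6 h to 0.30 (q = 0.0779) and against 5 days to 0.24 (q = 0.113). Without replicate 2, LOXL1 was called against saline at -0.68 (q = 0.0377) and against 5 days at -0.63 (q = 0.0419). In the same fit FBN1 was called against Beta-Ac at 6 h at 0.67 (q = 0.0226) and against 5 days at 0.61 (q = 0.017), and against saline it reached 0.46 (q = 0.0701). Without replicate 3, FBN1 was also called against Beta-Ac at 6 h, at 0.60 (q = 0.0543). Within the animals whose numbers begin with 15, that is without saline replicate 3, the differences from saline were -0.52 for LOXL1 (q = 0.158) and 0.44 for FBN1 (q = 0.121).

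**Figure D2:**
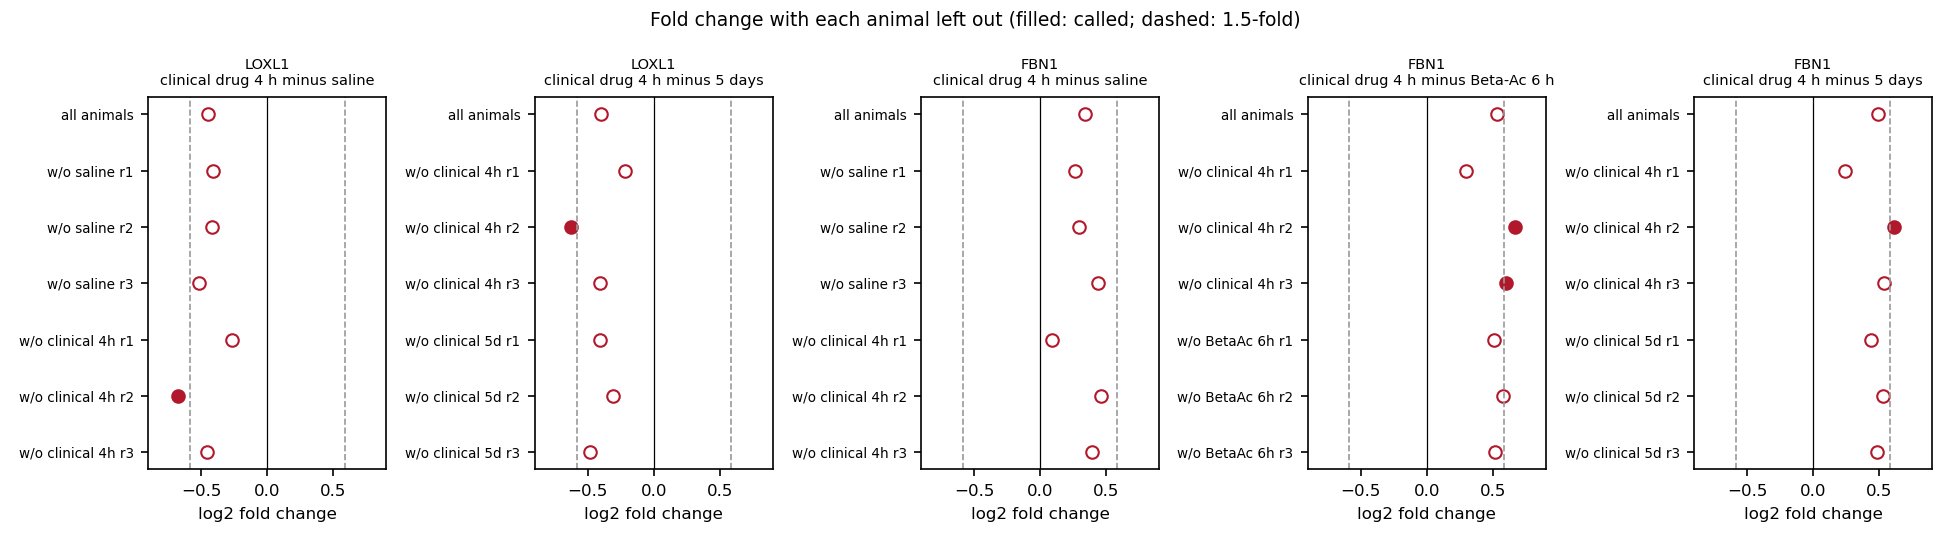
Log2 fold change (x axis) of LOXL1 and FBN1 in 5 comparisons with all animals and with each animal left out (y axis, r for replicate), filled where the gene was called, with dashed lines at 1.5-fold. LOXL1 was called only without replicate 2 of the clinical drug at 4 h (-0.68 against saline, -0.63 against 5 days), and FBN1 without that animal or, against Beta-Ac at 6 h, without replicate 3 (0.60).

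Some cell type marker sums moved at the same time point, while those of airway epithelium, cartilage, striated muscle and erythroid cells overlapped saline. Alveolar epithelial markers (7 of 8 listed had a row and none was at 0) summed to 7350 to 10800 CPM in saline lungs and to 12800 to 18700 CPM at 4 h after the clinical drug, with the highest sum in replicate 1. At 6 h after Beta-Ac that sum ran from 9650 to 14100 CPM and overlapped the saline range. Of these markers SFTPC, ABCA3, LAMP3 and HOPX were called higher at 4 h after the clinical drug against saline. Pericyte markers (5 of 6 with a row) ran from 1680 to 1820 CPM in saline lungs and from 1300 to 1340 CPM at 4 h, with RGS5 called lower. Mesothelial markers (4 of 6 with a row) ran from 27.8 to 53.5 CPM in saline lungs and from 72.1 to 98.2 CPM at 4 h, with ITLN1 called higher. Smooth muscle markers overlapped, at 785 to 1100 CPM in saline lungs and 833 to 935 CPM at 4 h. Adventitial fibroblast markers (6 of 6 with a row) summed to 822 to 886 CPM in saline lungs and to 641 to 808 CPM at 4 h, without overlap. CD34 was called lower, but 3 of the 6 had a log2 fold change above 0, with a median of 0.17, so they did not fall as a set. Endothelial markers (5 of 6 with a row) overlapped, at 2940 to 3530 CPM and 2700 to 3650 CPM, with KDR called lower. Among leukocyte markers, PTPRC and CD3E were called lower and CD163 higher. The part of these markers in the LOXL1 and FBN1 values was not tested.

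FBLN5 (ENSMMUG00000008447) encodes fibulin-5, which tethers elastin to the microfibril and to cell-surface integrins. Its values were 303, 287 and 303 CPM in saline lungs and 258, 260 and 293 CPM at 4 h after the clinical drug. Beta-Ac animals at 6 h held 249, 272 and 233 CPM, with all 3 animals below all saline animals. The log2 fold change there was -0.24 (SE 0.13, interval -0.52 to 0.04, q = 0.376 by edgeR's quasi-likelihood test). Against Beta-Ac at 5 days (324, 297 and 298 CPM) it was -0.29 (q = 0.544), again with no overlap. At 5 days after the clinical drug the animals were further apart, at 225, 311 and 356 CPM. Group means ran from 251 ± 19.6 to 307 ± 15.2 CPM. The widest bounds of its 8 intervals were -0.57 and 0.39, so a 1.5-fold change of FBLN5 lay outside each interval.

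MFAP5 (ENSMMUG00000010747), a small glycoprotein bound to fibrillin, had the fewest reads of the 7 genes. It was at 2.62, 2.05 and 3.87 CPM in saline lungs, 4.52, 2.77 and 3.19 CPM at 4 h after the clinical drug and 3.29, 4.35 and 3.38 CPM at 6 h after Beta-Ac. The 5-day values were 1.38, 2.73 and 4.41 CPM after the clinical drug and at 6.21, 0.926 and 1.77 CPM after Beta-Ac. All groups overlapped, and the 5-day groups covered the whole range. Its log2 fold changes against saline were 0.30 and 0.36 at the early time points and 0 and 0.05 at 5 days, each with an SE of 0.56. Its intervals reached from -1.25 to 1.57, and beyond 1.5-fold in all 8 comparisons.

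TNC (ENSMMUG00000003356), tenascin-C, varied widely between animals of a group. Saline lungs held 746, 558 and 751 CPM. At 4 h after the clinical drug the values were 297, 730 and 443 CPM and at 6 h after Beta-Ac 464, 702 and 268 CPM. At 5 days they were 516, 538 and 377 CPM after the clinical drug and 818, 348 and 667 CPM after Beta-Ac. In both early groups replicate 2 was in the saline range and the other animals were below it, as for LOXL1. The 3 animals at 5 days after the clinical drug were all below the saline animals, by a log2 fold change of -0.52 (SE 0.37, interval -1.32 to 0.27, q = 0.931 by edgeR's quasi-likelihood test). In a fit of only these 2 groups the value was also -0.52, with q = 0.623. The other changes against saline were -0.48, -0.52 and -0.16 at 4 h after the clinical drug and at 6 h and 5 days after Beta-Ac. The intervals of TNC reached beyond 1.5-fold in all 8 comparisons.

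PDGFRA (ENSMMUG00000017395) encodes the receptor through which PDGF-A recruits alveolar myofibroblast precursors. Its fold changes had the smallest SE of the 7 genes (0.10). It was at 55.3, 51.6 and 51.8 CPM in saline lungs. The early values were 68.4, 53.3 and 56.8 CPM after the clinical drug and 57, 57.4 and 56.9 CPM after Beta-Ac. At 5 days it was at 60.8, 53.7 and 51.4 CPM after the clinical drug and at 57.8, 50.7 and 54.4 CPM after Beta-Ac. The 3 animals at 6 h after Beta-Ac were above all saline animals, but by a log2 fold change of only 0.11 (SE 0.10, interval -0.11 to 0.32, q = 0.535 by edgeR's quasi-likelihood test). At 4 h after the clinical drug the change was 0.17 (q = 0.273) and at 5 days 0.06 and 0.04. No interval of PDGFRA in the 8 comparisons went beyond -0.19 or 0.39.

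ACTA2 (ENSMMUG00000009341), smooth muscle actin, is nearly identical to the other muscle actins, and reads can be shared among them, so its level is uncertain. Saline lungs were at 953, 1060 and 759 CPM. The clinical drug gave 653, 1030 and 885 CPM at 4 h and 810, 748 and 837 CPM at 5 days. Beta-Ac gave 636, 1080 and 815 CPM at 6 h and 799, 947 and 955 CPM at 5 days. Every treated group overlapped saline. Log2 fold changes against saline were -0.11, -0.13, -0.21 and -0.04 in the order clinical drug 4 h, Beta-Ac 6 h, clinical drug 5 days and Beta-Ac 5 days (SE 0.19). A change of 1.5-fold lay outside the interval in 7 of 8 comparisons, the exception being the clinical drug at 5 days (-0.62 to 0.20).

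**Figure D3:**
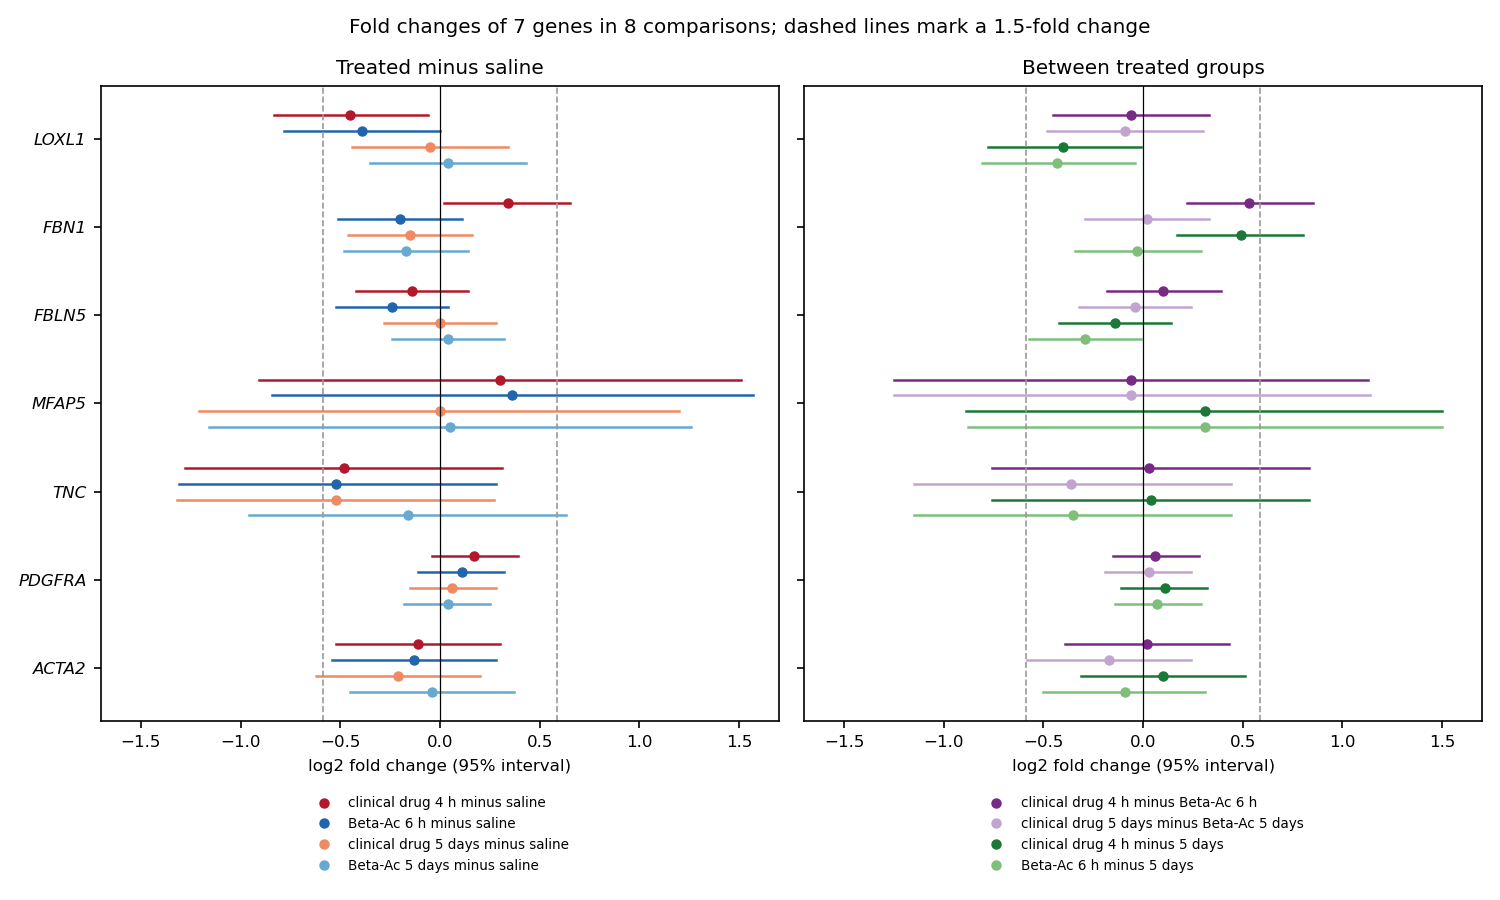
Log2 fold change (x axis) of the 7 genes (y axis) in 4 comparisons with saline (left) and 4 between treated groups (right), with points for the estimates, bars for the 95% intervals of edgeR's fit and dashed lines at 1.5-fold. The bars of PDGFRA and FBLN5 stay inside the dashed lines in all 8 comparisons, and those of MFAP5 and TNC cross them in all 8.

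Counts at an unadjusted p under 0.05 were read against those over all genes. At 4 h after the clinical drug 2 of 7 genes had such a p against saline (LOXL1 and FBN1), where 18.7% of all genes did. For Beta-Ac at 6 h it was 0 of 7 against 11.5%, and in the 5-day groups 0 of 7 against 4.39% (clinical drug) and 6.42% (Beta-Ac). Between the drugs it was 1 of 7 (FBN1) against 20.7% at the early time points and 0 of 7 against 3.15% at 5 days. Between times it was 2 of 7 (LOXL1 and FBN1) against 22.9% for the clinical drug and 2 of 7 (LOXL1 and FBLN5) against 7.91% for Beta-Ac. DESeq2 and edgeR's likelihood ratio test also called 0 of 7 in each comparison. The median log2 fold change of the 7 genes was -0.11 at 4 h after the clinical drug and -0.20 at 6 h after Beta-Ac, against 0.02 over all genes in each. At 5 days it was -0.05 and 0.04, against 0 and 0.01.

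Some pairs of genes varied together between animals. Across the 15 lung libraries LOXL1 and TNC had a Pearson r of 0.69 on log2 CPM (Spearman 0.56), and 0.72 after subtracting group means. LOXL1 and ACTA2 had an r of 0.60 (Spearman 0.39), and 0.76 within groups. LOXL1 and FBN1 ran opposite to each other with r = -0.57, and -0.64 within groups, but the Spearman value was -0.16. LOXL1 and PDGFRA had an r of -0.64 (Spearman -0.32), and -0.48 within groups. The libraries share groups and differ in depth, so these values describe this set of animals only. Among 12455 genes with a symbol, those most like each gene over the 15 libraries included HINT2 and FZD2 for LOXL1 (r = 0.93 each) and CNOT4 for FBN1 (0.86). For FBLN5 they were KLHL32 (0.88) and PLS3 (0.81), for MFAP5 ABCA8 (0.83) and WDR19 (0.82) and for TNC MAGED1 and ERI3 (0.84 each). For PDGFRA they included OSBPL2 (0.90), and for ACTA2 CFL1, an actin-severing protein (0.86), and CRIP2 (0.85).

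The wider set of elastic fibre genes held 25 listed, of which 21 were tested. Against saline the clinical drug at 4 h had 2 of them called higher and 0 lower, where 3.46% and 3.94% of all genes were. ADAMTSL4, which binds fibrillin microfibrils, was at 118, 116 and 103 CPM against 68, 73.5 and 79.9 CPM in saline lungs, a log2 fold change of 0.61 (q = 0.0261 by edgeR's quasi-likelihood test). ADAMTSL2, another fibrillin-binding protein, was at 152, 156 and 182 CPM against 108, 132 and 77.6 CPM, a change of 0.63 (q = 0.0451). For both, all treated animals were above all saline animals. Leaving out single animals gave 0.53 to 0.67 for ADAMTSL4, with the call lost without saline replicate 1 or replicate 1 or 2 at 4 h. For ADAMTSL2 it gave 0.45 to 0.82, with the call lost without saline replicate 1 or 3 or replicate 3 at 4 h. The median change of the 21 genes was -0.04, against 0.02 over all genes. No elastic fibre gene was called at 6 h after Beta-Ac or at 5 days against saline, with medians from -0.07 to -0.03. MFAP4, a microfibril-associated glycoprotein, was called lower at 4 h after the clinical drug than at 6 h after Beta-Ac (-0.59, q = 0.0264) and than at 5 days (-0.64, q = 0.00992). The first call was lost without replicate 2 or 3 at 4 h or replicate 1 at 6 h (range -0.70 to -0.52) and the second without replicate 2 at 5 days (range -0.76 to -0.54).

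Among elastin-degrading proteases and their inhibitors 10 of 15 listed genes were tested. In the 4 h group of the clinical drug ELANE, neutrophil elastase, was called higher at 1.64, 1.79 and 1.56 CPM against 0.714, 0.958 and 1.1 CPM (0.84, q = 0.0939), and CTSS, cathepsin S, was called lower at 9.4, 5.91 and 5.7 CPM against 10.4, 8.15 and 13.8 CPM (-0.61, q = 0.0909). The call of ELANE was lost without any single animal (0.67 to 0.99) and that of CTSS without saline replicate 1 or 3 or replicate 2 or 3 at 4 h (-0.91 to -0.39). Leukocyte markers (6 of 6 with a row) summed to 33.1 to 137 CPM at 4 h and to 76.2 to 88.5 CPM in saline lungs, and their part in these values was not tested. Against Beta-Ac at 6 h, CTSS was lower at 4 h after the clinical drug by -0.87 (q = 0.0264) and MMP7, a matrix metalloprotease, was higher by 1.22 (q = 0.0589). Without single animals CTSS stayed called there (-1.17 to -0.75), while MMP7 was lost without replicate 2 at 4 h or replicate 2 or 3 at 6 h (0.95 to 1.60). None of the 10 was called at 6 h after Beta-Ac or at 5 days against saline.

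Of 15 smooth muscle contractile genes 13 were tested, and 0 were called in any of the 8 comparisons by edgeR's quasi-likelihood test. Their median log2 fold change against saline was 0.01 and 0.03 for the clinical drug (4 h, 5 days) and 0.03 and 0.12 for Beta-Ac (6 h, 5 days). Above 0 were 7 and 8 of 13 for the clinical drug and 8 and 12 of 13 for Beta-Ac, where over all genes the shares were 52.6% and 50.5%, and 52.7% and 51.6%.

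Lung mesenchyme signaling genes gave 2 called higher and 0 lower of 11 tested (20 listed) at 4 h after the clinical drug. Over all genes 3.46% were called higher and 3.94% lower there. HHIP, a hedgehog-binding protein, was at 91.1, 73.6 and 75.3 CPM against 37.4, 45.3 and 33.2 CPM in saline lungs (1.05, SE 0.27, q = 0.0245 by edgeR's quasi-likelihood test). Which cells of the whole lung held HHIP was not tested. All 3 treated animals were above all saline animals, and the call held with each of the 6 animals left out (0.94 to 1.18). At 6 h after Beta-Ac HHIP was at 51.7, 47 and 99.4 CPM, a change of 0.77 that did not pass (q = 0.26), and the difference between the early groups was not called. PLIN2, which coats lipid droplets in lipofibroblasts and in other cells, was at 9.4, 6.65 and 6.2 CPM against 2.68, 2.53 and 2.56 CPM (1.52, q = 0.0417). Its call was lost without any saline animal or replicate 1 at 4 h (1.29 to 1.62). At 6 h after Beta-Ac PLIN2 was at 6.27, 3.33 and 14.6 CPM (1.63, q = 0.169). PDGFC, a ligand of PDGFRA, was called higher at 4 h after the clinical drug than at 6 h after Beta-Ac (0.64, q = 0.079), a call lost without replicate 2 or 3 at 4 h or replicate 1 or 3 at 6 h (0.51 to 0.85).

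Among matricellular proteins and integrins 14 of 16 listed genes were tested. THBS1, thrombospondin-1, which can activate latent TGF-beta, was at 91.9, 97.3 and 84.1 CPM in saline lungs. It rose to 207, 170 and 255 CPM at 4 h after the clinical drug (1.21, SE 0.22, q = 0.0027 by edgeR's quasi-likelihood test) and to 142, 180 and 284 CPM at 6 h after Beta-Ac (1.15, SE 0.22, q = 0.0475). In both groups every treated animal was above every saline animal. The call after the clinical drug held with each animal left out (1.04 to 1.33), while that after Beta-Ac was lost without any saline animal or replicate 3 at 6 h (0.82 to 1.35). At 5 days THBS1 was at 91.3, 80.9 and 82 CPM after the clinical drug and at 113, 89.9 and 128 CPM after Beta-Ac, with 0 of 14 genes called. Also called at 4 h were ITGA8, the myofibroblast integrin alpha 8, at 194, 85.2 and 172 CPM against 79.9, 76.4 and 95.1 CPM (0.85, q = 0.082), and ITGB3, lower at 3.91, 3.66 and 4.13 CPM against 6.42, 6.85 and 7.23 CPM (-0.81, q = 0.092). ITGA8 kept its call only without replicate 2 at 4 h (range 0.60 to 1.11), and ITGB3 lost it without any single animal (-0.87 to -0.76). ITGA8 was at 122, 157 and 239 CPM at 6 h after Beta-Ac (1.04, q = 0.18).

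Over the 69 tested genes of these lists, 9 were called at 4 h after the clinical drug against saline (13%, against 7.4% of all genes). At 6 h after Beta-Ac 1 was called against saline (1.45%, against 0.442%), and between the early groups 4 were (5.8%, against 6.74%). Between 4 h and 5 days after the clinical drug 10 of the 69 were called (14.5%, against 10.4% of all genes). ADAMTSL2 (0.65), ADAMTSL4 (0.72), HHIP (0.83), THBS1 (1.31), ITGA8 (1.31), ITGB6 (0.74) and CCN2 (0.70) were higher at 4 h, and MFAP4, CTSS (-0.85) and CCN1 (-0.66) were lower. ADAMTSL4, THBS1, ITGA8 and CTSS stayed called with each animal left out. CCN2 lost its call without replicate 3 at 4 h (0.31) or any animal at 5 days, and CCN1 without replicate 2 or 3 at 4 h or replicate 1 (-0.52) or 2 at 5 days. ADAMTSL2 lost it without replicate 3 at 4 h or at 5 days (0.48), HHIP without replicate 2 (0.70) or 3 at 5 days, and ITGB6 without replicate 2 or 3 (0.50) at 4 h or replicate 3 at 5 days. Between 6 h and 5 days after Beta-Ac 0 genes of these lists were called.

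**Figure D4:**
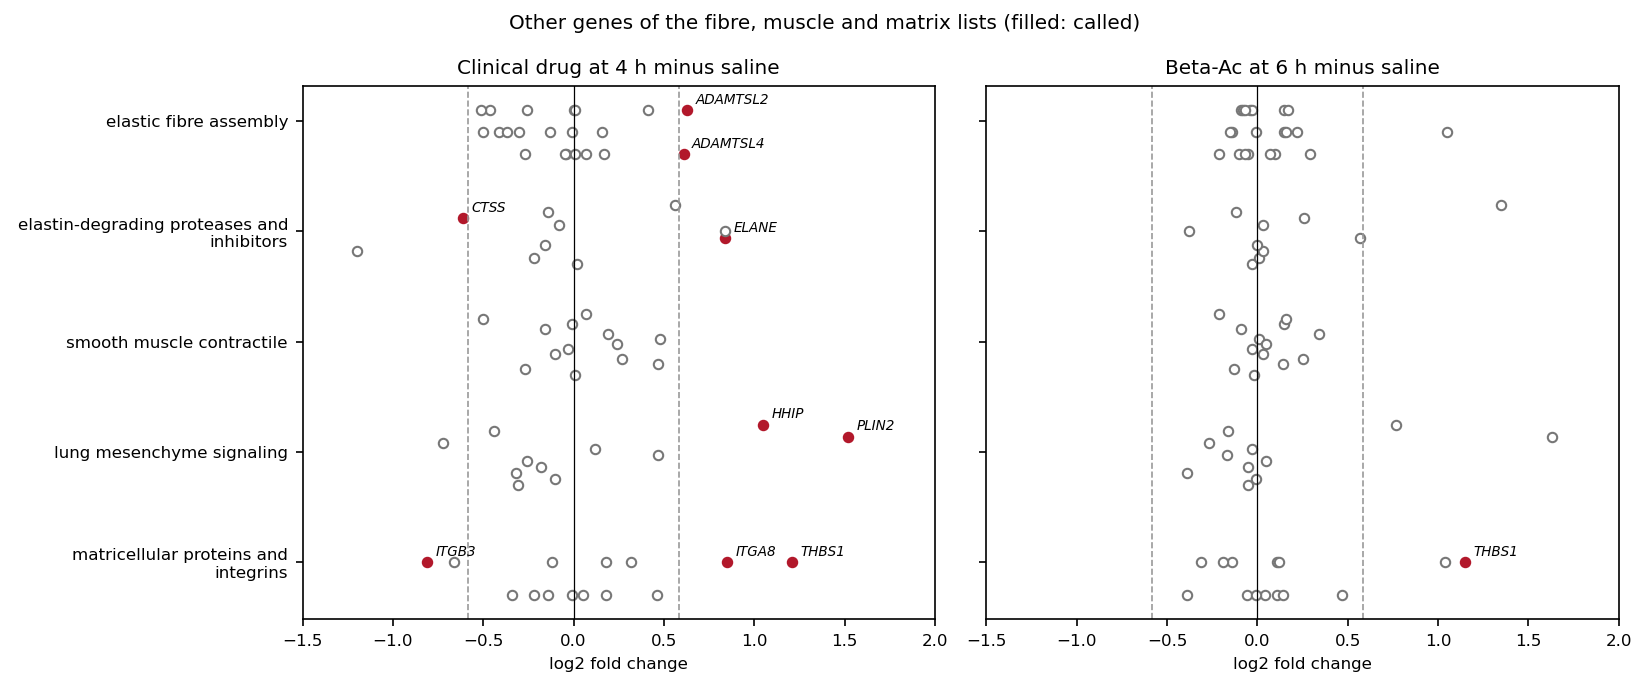
Log2 fold change (x axis) of the tested genes of 5 lists (y axis; vertical spread within a list has no meaning) at 4 h after the clinical drug (left) and 6 h after Beta-Ac (right) against saline, filled and named where called, with dashed lines at 1.5-fold. THBS1 is called in both panels (1.21 and 1.15), and no smooth muscle contractile gene in either.

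Glucocorticoid-induced genes served as a check of the treatment labels. FKBP5 was at 5.27 to 5.83 CPM in saline lungs, at 120 to 219 CPM at 4 h after the clinical drug and at 18.9 to 106 CPM at 6 h after Beta-Ac. PER1 and ZBTB16 were also called higher with both drugs, and none of the 3 was called at 5 days. Over all genes, leaving out single animals moved the number called at 6 h after Beta-Ac from 78 to between 9 and 211. Where 0 genes were called at 5 days after the clinical drug, 775 had an unadjusted p under 0.05 and DESeq2 and edgeR's likelihood ratio test each called 16.

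Hippocampus of the saline animals was counted in a table normalized apart and on another Ensembl annotation, so its levels are given with no test. In the animals numbered 92, 101 and 113, TNC was at 730, 823 and 889 CPM and PDGFRA at 286, 228 and 282 CPM. FBN1 was at 29.4, 33.6 and 27.8 CPM there, FBLN5 at 8.41, 10.2 and 8.82 CPM and LOXL1 at 5.06, 5.29 and 1.64 CPM. MFAP5 was at 9.11, 29.8 and 39.6 CPM and ACTA2 at 5.81, 19.3 and 12.2 CPM. ELN, which had a row in that table, was at 3.7, 9.99 and 7.14 CPM.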

How the data were processed

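Lung RNA was sequenced with 75 bp reads. The deposited values are raw counts per Ensembl gene, which the authors made without normalization. Their methods name Bowtie 2, MMUL1.0 and featureCounts, whereas the submitters' processing notes for lung name Bowtie 1.2.1.1 and featureCounts 1.5.1. Genes that reached 7 reads in 3 or more of 15 libraries were fitted in a single model of 5 groups in R 4.3.3 with edgeR 4.0.16 (TMM, quasi-likelihood F-test, Storey q over all genes tested). Prior counts were 0.125 (fold changes) and 2 (log2 CPM). The steps were tested on simulated counts.

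The genes and lists were chosen with earlier results of these data known. Text names all 9 genes, their 2 closest genes by Pearson r over genes with a symbol (some of these are not reported here), and list genes called at the early time points against saline. MFAP4, MMP7, PDGFC, CCN1, CCN2, ITGB6 and the gene and marker values not covered by that rule were named after their values were seen. Alternatives were RLE, filterByExpr, no filter, no fold-change threshold, Benjamini-Hochberg, 2-group fits, the likelihood ratio test, DESeq2 1.42.0 and each animal left out. Each list gene was recomputed under them as a choice made after seeing the data. Of hippocampus, whose labels disagree on treatment, only libraries labelled saline in all fields were used. Replicates are separate animals. No gene length or genome of the files' build was used, so levels are not compared between genes, and no sequence is shown.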

Additional observations from a re-analysis of the deposited data

Results flagged for a closer look

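FBN1 differed between groups under a direct test. It was higher at 4 h after the clinical drug than at 6 h after Beta-Ac by 0.53 on the log2 scale (q = 0.0357 by edgeR's quasi-likelihood test). Against 5 days after the clinical drug it was higher by 0.49 (q = 0.0331). In both cases all 3 animals at 4 h were higher, a separation whose share over all genes was not computed. Both differences fell short of the 1.5-fold threshold, and without it 13.5% and 18.7% of all genes were called there. Without replicate 1 at 4 h they came to 0.30 and 0.24. In a fit of only the early groups the first did not pass the q threshold. The early groups also differ in compound, dose, hours and the prefix of the animal numbers, and the groups of the clinical drug in time and prefix. These cannot be told apart here.

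In hippocampus of 5 saline animals, 1 animal stood apart from the others in ELN (65.9 CPM, the others from 1.55 to 9.99 CPM) and in FBN1 (79.1 CPM, the others from 22.5 to 33.6 CPM). Its gap to the nearest animal was 0.869 and 0.804 of the range, above the critical value of 0.71 of Dixon's test for 5 samples. For normally distributed values chance alone exceeds that value in about 1 in 20 groups. Whether these CPM values are so distributed was not tested, and 8 genes of the same animals were looked at. The same animal was also the highest in FBLN5 (22.5 CPM), ACTA2 (35.5), LOXL1 (11.3), MFAP5 (44.7) and PDGFRA (323), but not in TNC (804). None of these genes passed the critical value. This animal has no lung library here and enters no comparison.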

How the results depend on the processing

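With 3 animals per group, spread between animals exceeded counting error for genes with many reads. Genes with few reads, such as ELANE, were not part of that check. Of 672 recomputed fold changes of the 7 genes, 605 changed neither sign nor side of the threshold, 5 became calls without a single animal and 38 changed sign, all 38 with an animal left out and none of them called. The other 24 belong to 2 fold changes of 0 that have no direction, FBLN5 and MFAP5 at 5 days after the clinical drug, which ran from -0.15 to 0.16 and from -0.46 to 0.32 with an animal left out. Of 288 values of other listed genes that were called, 211 kept the call and 77 lost it without a change of sign, 61 with an animal left out and 16 under other settings. Without a read filter the lost calls were ELANE, CTSS, ITGA8 and ITGB3 (clinical drug at 4 h against saline), PDGFC (against Beta-Ac at 6 h), and CCN1 and CCN2 (against 5 days). In 2-group fits they were ELANE, CTSS and ITGA8, THBS1 (Beta-Ac at 6 h against saline, q = 0.201), and MMP7, CTSS and PDGFC (between the early groups). ELANE was also lost by DESeq2 and the likelihood ratio test. The number of the 7 genes called changed from 0 in 3 comparisons. Without a fold-change threshold it was 1 for the clinical drug at 4 h against Beta-Ac at 6 h and 1 against 5 days. With single animals left out it ran from 0 to 1 against saline, from 0 to 1 against Beta-Ac at 6 h and from 0 to 2 against 5 days.

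Values that changed sign, with their lowest and highest with an animal left out, were as follows. For the clinical drug at 4 h against saline ACTA2 ran from -0.28 to 0.04, and for Beta-Ac at 6 h from -0.37 to 0.03. At 5 days after the clinical drug LOXL1 ran from -0.14 to 0.02 and PDGFRA from -0.01 to 0.12. At 5 days after Beta-Ac LOXL1 ran from -0.05 to 0.09, MFAP5 from -1.08 to 0.48, TNC from -0.43 to 0.12, PDGFRA from -0.01 to 0.08 and ACTA2 from -0.16 to 0.07. Between the early groups LOXL1 ran from -0.28 to 0.13, MFAP5 from -0.31 to 0.08, TNC from -0.37 to 0.41, PDGFRA from -0.06 to 0.14 and ACTA2 from -0.15 to 0.24. Between the 5-day groups FBN1 ran from -0.03 to 0.07, FBLN5 from -0.19 to 0.12, MFAP5 from -0.52 to 1.08 and PDGFRA from -0.05 to 0.08. Between times after the clinical drug MFAP5 ran from -0.02 to 0.75, TNC from -0.38 to 0.28, PDGFRA from -0.02 to 0.18 and ACTA2 from -0.07 to 0.24. Between times after Beta-Ac FBN1 ran from -0.09 to 0.02, MFAP5 from -0.12 to 1.44 and ACTA2 from -0.33 to 0.07. Over all genes the early drugs differed in 1189 genes, in 2389 without a fold-change threshold, in 724 without a read filter and in 314 in a 2-group fit. Beta-Ac at 6 h differed from saline in 78 genes, in 19 in a 2-group fit and in 247 each by DESeq2 and the likelihood ratio test. No paired analysis was possible because every group held other animals and replicate numbers only name them.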
